A study of Chlorocebus sabaeus with 18 samples.

Results

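A set of 65 genes had a lower mean in control COS-7 cells than in each of 4 groups that carried a CGG repeat RNA, raised TRA2A, lowered TRA2A, or the repeat with lowered TRA2A. They were chosen from the authors' normalised values, summed per gene, by 2 conditions: each of the 4 treated means was at least 1.8 times the control mean, and the highest of the 5 group means was 50 or more. Of 52560 single gene IDs in the normalised table, 12803 reached that minimum, and the members made up 0.508% of these. The mirror-image rule, with each treated mean at most the control mean divided by 1.8, found 124 genes. Because the members were chosen on the control contrast, their difference from the control is described below without a test.

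COS-7 is a kidney cell line of the African green monkey with a fibroblast-like form. Fragile X-associated tremor/ataxia syndrome (FXTAS) arises in carriers of an expanded CGG repeat in the 5′ leader of FMR1, and the repeat RNA is known to gather RNA-binding proteins in nuclear inclusions. TRA2A is a serine/arginine-rich splicing activator that binds purine-rich exonic sequences, and the title of the series names its recruitment by RNA. Plasmids and siRNAs are brought into COS-7 cells by transfection, so a group of genes that differs between a control and every manipulated group is read together with what the control received.

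Each group held 3 samples. CTL was labelled as control COS-7 cells, with no treatment and no transfection named, so whether these cells received an empty vector or a control siRNA is not given in the sources used here. CGG cells were transfected with an expansion of 60 CGG repeats at the FMR1 leader, TRA_OE cells overexpressed TRA2A (titled GFP_TRA), and siTRA cells were knocked down for TRA2A. CGG_siTRA cells carried the repeat and the knockdown. A further group, CGG_TRA, carried the repeat and the overexpression, and entered only through the authors' splicing event tables. No group was labelled as transfected with a control construct, so the named treatments and the act of transfection cannot be told apart in any value set against CTL. The treated groups may also differ from one another in what was delivered to the cells. In the comparisons among them, delivery and the named treatment cannot be told apart either. Whether the 3 samples of a group were separate cultures is not stated in the labels. The p-values therefore reflect the spread among these samples alone, which may be technical. In bulk RNA, a larger share of cells that express a gene and more RNA per cell cannot be told apart.

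The 15 libraries with values held between 123599617 (siTRA library b) and 207475255 (CGG library c) reads summed over exon bins, a bin being a stretch of exon cut at every annotated exon edge. The letters a to c only name libraries of a group. The gene at chromosome 7, 23504780 to 23532041 (minus strand, GRCh38), is taken here as TRA2A, since no other gene was raised in TRA_OE and lowered in both knockdown groups by a factor of 2 or more against CTL. Because its behaviour picked it, it checks the labels only weakly. Its normalised value was 17096 ± 166 in CTL, 16252 ± 701 in CGG, 204614 ± 17346 in TRA_OE, 3914 ± 917 in siTRA and 4274 ± 221 in CGG_siTRA (mean ± SD, n = 3). The reads had been aligned to the human genome, and neither the files nor the reference table of the monkey genome pair the human gene IDs with names. Members are therefore called by their GRCh38 position, gene lists and cell type markers could not be matched, and the kidney label was not checked against markers.

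In 60 of the 65 members all 12 treated libraries lay above all 3 CTL libraries, and in 5 the ranges overlapped. The rule used these libraries, so the count is largely fixed by the choice of members and is a description. The share of all genes with such a separation was not computed. The lowest treated mean was 2 or more times the CTL mean in 47 members and 3 or more times in 14, with a median of 2.25 over the members, and it was under 2 in 18. Members spanned a wide range of levels: the CTL mean was under 50 in 23 members, between 50 and 1000 in 26, and 1000 or more in 16. Per kilobase of bin length, the mean normalised value over the treated groups ran from 9.26 to 274719 among the 50 members with a listed length, with a median of 144.

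The share of all reads summed over bins that fell on the 65 members was 0.145% ± 0.00475 in CTL, 0.472% ± 0.0192 in CGG, 0.361% ± 0.00552 in TRA_OE, 0.481% ± 0.0541 in siTRA and 0.495% ± 0.0209 in CGG_siTRA (mean ± SD, n = 3). A read that covers several bins counts once in each, so this is not a share of single reads. TRA_OE was the lowest treated group by this share and CTL stood below it, in a sum to which the most abundant members contribute most. Within siTRA, library b had 0.420% and the other libraries 0.499% and 0.524%. By group means of the single members, TRA_OE was the lowest of the 4 treated groups in 37 members, siTRA in 15, CGG in 8 and CGG_siTRA in 5. CGG was the highest in 25, siTRA in 24, TRA_OE in 9 and CGG_siTRA in 7.

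**Figure D1:**
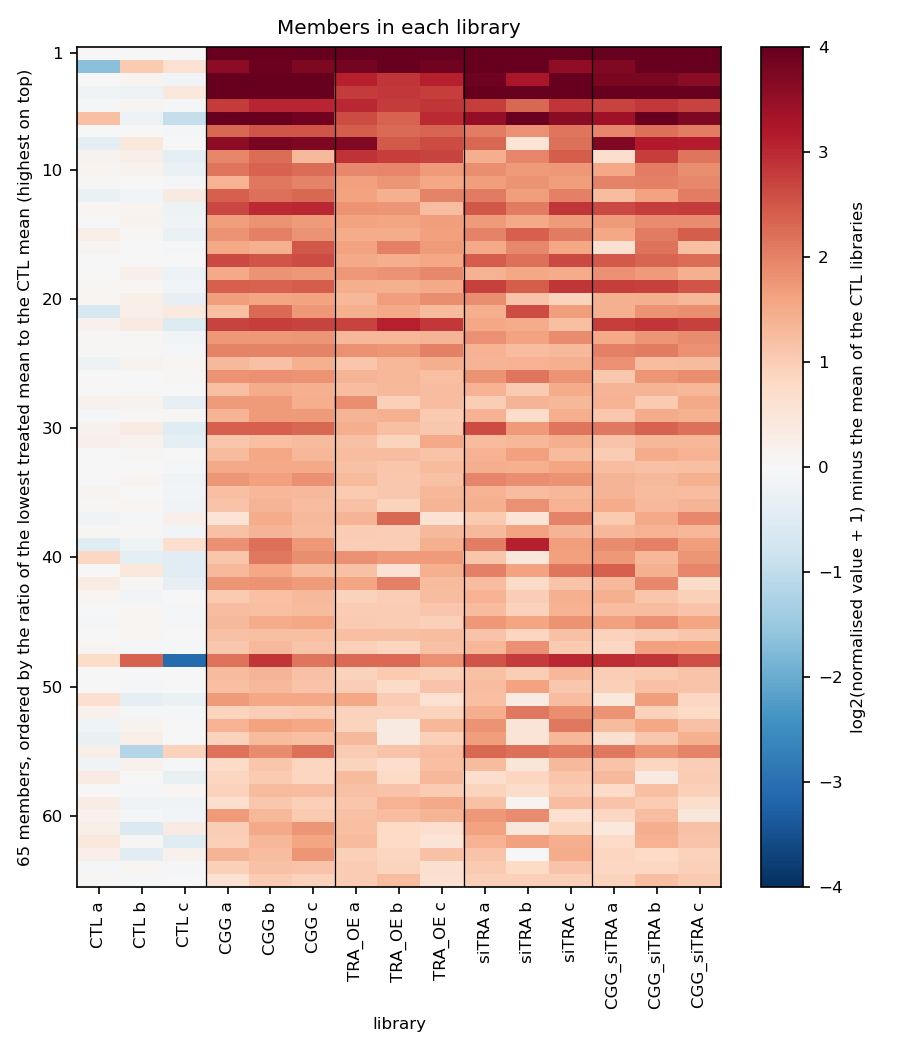
Each row is 1 of the 65 members, ordered by the ratio of the lowest treated mean to the CTL mean, and each column is 1 of 15 libraries; colour gives log2(normalised value + 1) minus the mean of the CTL libraries, with the scale limited at both ends. The 12 treated columns are mostly red in all 4 groups, and the top rows are darkest.

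The member at chromosome 3, 185959943 to 185980872 (plus strand), had 0 reads in all 3 CTL libraries. Its normalised values were 52.1, 36.7 and 36.6 in CGG, 37.1, 18.3 and 31.4 in TRA_OE, 56.5, 15.6 and 64.4 in siTRA, and 89.9, 65.3 and 51.6 in CGG_siTRA. All treated libraries were above 0, and siTRA library b and TRA_OE library b were the lowest. Against a floor of 3 reads over the CTL group, the means were at least 42.1-fold higher in CGG, at least 29.1-fold in TRA_OE, at least 45.8-fold in siTRA and at least 69.4-fold in CGG_siTRA, for counting error only. The next ratio belonged to the member at chromosome 2, 96497646 to 96505357 (minus strand). It had 0, 5.58 and 3.90 in CTL and between 36.1 and 63.8 in the 12 treated libraries. Its treated means, from 41.7 in CGG to 51.5 in siTRA, lay close together, 13.2 to 16.3 times the CTL mean.

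Chromosome 7 held 2 members that neighbour each other on the plus strand, 23380 bases apart, the only adjacent pair among the members. The abundant one, at 134527592 to 134541408, had 674, 741 and 640 in CTL, 12385, 12755 and 12920 in CGG, 5947, 4932 and 5850 in TRA_OE, 10088, 6629 and 11073 in siTRA, and 9338, 9258 and 8305 in CGG_siTRA. Every treated library was several times above every CTL library, and the TRA_OE libraries lay below all other treated libraries. Its neighbour, at 134564788 to 134579875, had 60.1, 21.4 and 12.7 in CTL, where the spread between libraries was large. It had 384 to 458 in CGG, 136 to 209 in TRA_OE, 305 to 406 in siTRA and 275 to 427 in CGG_siTRA, again with TRA_OE lowest. Per kilobase the treated level of the first was 5231 and that of the neighbour 110.

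The member ENSG00000213606.3 has 1 bin and no position in the files. Its values were 20.4, 19.5 and 31.2 in CTL, 406, 436 and 448 in CGG, 169, 170 and 163 in TRA_OE, 427, 454 and 409 in siTRA, and 393, 456 and 423 in CGG_siTRA. TRA_OE stood apart from the other treated groups here too, without overlap. Its value as a percentage of the abundant chromosome 7 member's was 3.51 ± 1.20 in CTL, 3.39 ± 0.0974 in CGG, 3.02 ± 0.370 in TRA_OE, 4.93 ± 1.69 in siTRA and 4.74 ± 0.470 in CGG_siTRA (mean ± SD, n = 3). How the counting treated reads that fit several similar genes is not given in the sources used here, so whether these values come from the gene itself was not tested.

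At higher levels, the member at chromosome 22, 35380361 to 35394214 (plus strand), had 7026, 7927 and 7097 in CTL against 51518 to 60953 in CGG, 50649 to 59492 in TRA_OE, 36021 to 53597 in siTRA and 47928 to 52676 in CGG_siTRA. The treated groups overlapped one another, and the ratio of each mean to CTL lay between 6.30 and 7.84. At chromosome 5, a member from 179806398 to 179838078 (plus strand) had 8176, 8137 and 7780 in CTL, with means of 43946 ± 3582 in CGG, 40627 ± 2216 in TRA_OE, 32481 ± 3569 in siTRA and 33607 ± 2934 in CGG_siTRA. Both knockdown means were numerically below those of CGG and TRA_OE at this gene.

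The remaining members among the 10 highest ratios were less abundant. At chromosome 19, 48755559 to 48758330 (plus strand), the CTL libraries had 4.29, 8.37 and 5.85, CGG 81.7, 95.3 and 91.0, TRA_OE 89.7, 37.5 and 41.5, siTRA 33.0, 9.11 and 31.2, and CGG_siTRA 89.9, 62.1 and 60.8. Library b of siTRA came close to the highest CTL library there. At chromosome 19, 12899082 to 12919276 (minus strand), TRA_OE was the highest group at 86.1 ± 6.02, against 11.9 ± 2.73 in CTL, 45.7 ± 14.5 in CGG, 49.5 ± 16.3 in siTRA and 52.8 ± 32.3 in CGG_siTRA. At chromosome 10, 72273920 to 72276036 (plus strand), CTL had 484 ± 73.0 and the treated means ran from 1637 ± 111 in siTRA to 2269 ± 167 in CGG.

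**Figure D2:**
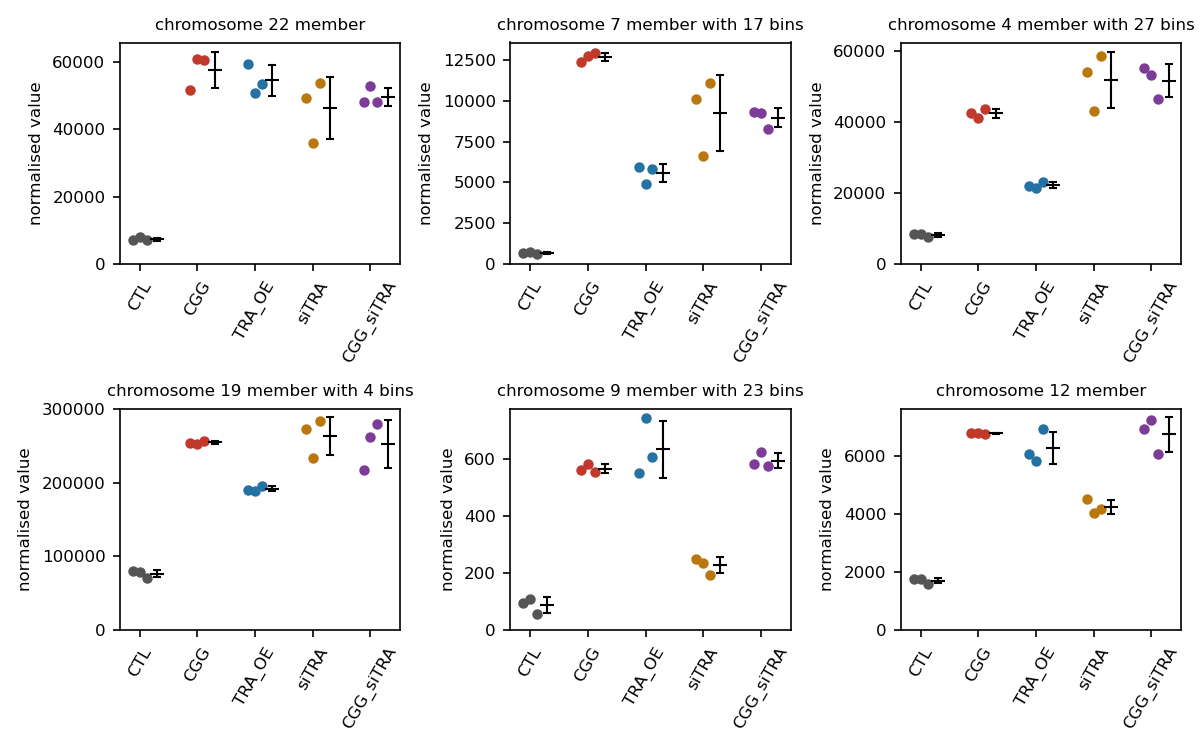
Normalised values (vertical axis, linear from 0) of 6 members in 5 groups; each point is 1 library, and the bar beside it gives mean ± SD, n = 3. CTL is lowest in all 6 panels. By mean, TRA_OE is the lowest treated group in the chromosome 7, 4 and 19 panels, and siTRA in the chromosome 9, 12 and 22 panels.

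The most abundant member, at chromosome 19, 48965301 to 48966878 (plus strand), had 79657, 79069 and 70675 in CTL, 253632 to 257142 in CGG, 189704 to 196288 in TRA_OE, 234450 to 284362 in siTRA and 217604 to 280643 in CGG_siTRA. Per kilobase it was at 87092 in CTL and 274719 over the treated groups, more than any other member. Next came chromosome 11, 61959718 to 61967660 (minus strand), at 33327 per kilobase in CTL and 83607 in the treated groups, and its treated means differed little, from 162559 ± 4061 in TRA_OE to 174711 ± 16233 in CGG. At chromosome 9, 87725519 to 87731393 (plus strand), the member had 36153 ± 1501 in CTL and treated means from 74818 ± 3160 in TRA_OE to 85173 ± 2160 in CGG.

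Other members of high level had ratios of the lowest treated mean to CTL of 2.26, 2.01 and 1.96, in the order given here. At chromosome 16, 69706996 to 69726951 (minus strand), CTL had 10804 ± 241, CGG 30658 ± 105, TRA_OE 24408 ± 1303, siTRA 30064 ± 1679 and CGG_siTRA 25026 ± 530. At chromosome 2, 24077435 to 24085181 (minus strand), CTL had 4950 ± 114 and the treated means ran from 9947 ± 667 in CGG_siTRA to 11430 ± 164 in TRA_OE. ENSG00000226564.1, with 1 bin and no position, had 4838, 4644 and 4795 in CTL and means of 11081 ± 646 in CGG, 9304 ± 1214 in TRA_OE, 11944 ± 2422 in siTRA and 10120 ± 787 in CGG_siTRA. In siTRA library b it reached 14673, above all other libraries.

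Membership was a matter of degree near the ratio of 1.8. Just inside were a gene of 1 bin with a CTL mean of 1372 and a lowest treated mean of 2477 (ratio 1.81), the gene at chromosome 11, 2883213 to 2885881 (1.81), and another of 1 bin (1.82). Just outside were genes at chromosome 1, 167809388 to 167914215 (1.79), chromosome 1, 51287258 to 51331346 (1.79), and chromosome 2, 151270465 to 151289894 (1.78). The ranges overlapped between treated and CTL libraries in members at chromosome 17, 82735575, chromosome X, 100843324, chromosome 10, 47581211, and chromosome 10, 132104671, and in 1 member of 1 bin. At the chromosome X member the lowest treated library had 29.2 and the highest CTL library 41.8.

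**Figure D3:**
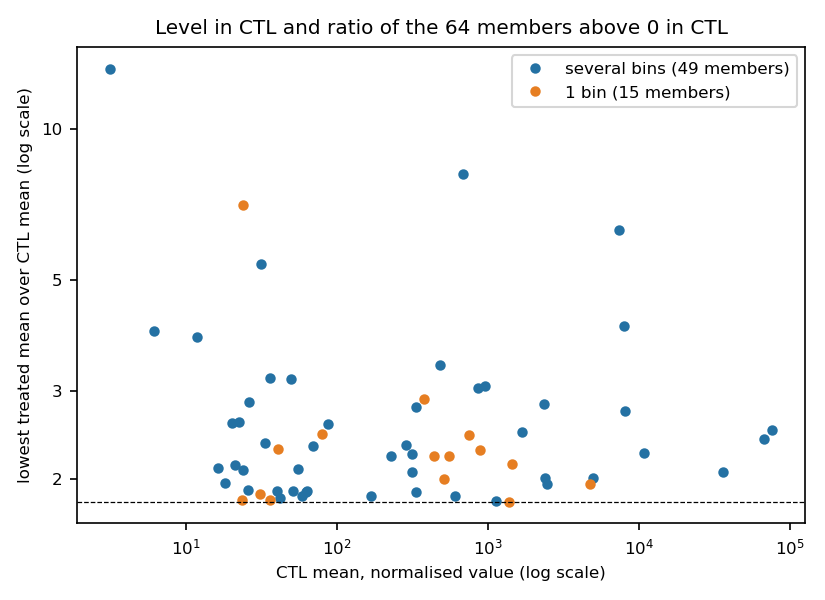
For the 64 members above 0 in CTL, the horizontal axis gives the CTL mean (normalised value, log scale) and the vertical axis the lowest treated mean over the CTL mean (log scale); each point is 1 member, blue with several bins and orange with 1 bin. The dashed line marks the ratio of 1.8; ratios of 3 or more are found at low and at high levels.

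Beyond the rule, the members differed in make-up from the genes that reached the same minimum, as a description. A single bin was the case for 15 of the 65 members (23.1%), against 11.1% of the 12803 genes. The members with several bins had a median of 17 bins and a bin length of 2647 bases, against medians of 26 bins and 4888.5 bases for genes at the minimum. The 50 members with a position lay on 20 chromosomes, 28 on the plus and 22 on the minus strand. Chromosome 1 held 7 of them, chromosome 10 held 6, chromosomes 7 and 19 held 5 each and chromosome 9 held 4.

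The genes next to the members mostly did not share their pattern. A neighbour was the nearest single gene ID without overlap on either side that had a highest group mean of 50 or more. Some lay far off, 1 of them 1762844 bases away. Among 98 neighbouring genes that were no members, 26 (26.5%) were above CTL in all 4 treated means, against 21.5% of the 12738 non-members at the minimum. The median ratio of the treated mean to the CTL mean was 0.993 for these neighbours and 0.980 for the non-members. Both neighbours of the member at chromosome 10, 89327894 came near the rule, with lowest treated means of 1.66 and 1.71 times the CTL mean.

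The bins of the members are the values that the rule summed, and some reached a mean of 10 over all libraries only through the treated groups, so their counts are largely fixed by the choice of members and are given as a description. In 44 members with several bins, 394 bins had a mean of 10 or more, and 390 of them were above CTL in all 4 treated groups. A ratio of 1.8 or more in all 4 groups was reached by 331 bins. In 40 members every such bin was above CTL, and in 4 members a single bin was not. One of these exceptions was the bin at chromosome 1, 225825354 to 225825544, with means of 5.99 in CTL, 16.8 in CGG, 5.63 in TRA_OE and 15.6 in siTRA. In the member at chromosome 10, 89327894 to 89340971 (plus strand), 1 of 3 bins held 91.6% of the treated sum.

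The 4 comparisons among the treated groups use no CTL library and were tested by the quasi-likelihood method of edgeR. Genes were called at an adjusted p under 0.05, by Benjamini-Hochberg over 17526 genes. These included groups of overlapping genes, which the rule barred from the members but which count among all genes tested below. All 65 members entered. Each had a highest group mean of 50 or more, while a tested gene needed a value of 10 in at least 3 libraries. The shares of all genes called are therefore over a set with a lower minimum level. Shares over genes at the members' minimum were not computed. The rule puts a floor under each treated group, which limits how far these groups can differ in a member. The comparisons share libraries in pairs: the siTRA libraries enter 2 of them, as do those of TRA_OE, CGG and CGG_siTRA, so the results below are not independent of one another.

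CGG_siTRA compared with siTRA gave calls for 2 members, both higher in CGG_siTRA, and 3 of all genes tested were called (0.0171%). That background varied widely with the processing: 567 genes were called without the filter on low values (4 members), 433 by DESeq2 (4 members) and 208 without CGG_siTRA library a (4 members). The member at chromosome 9, 128149441 to 128153455 (plus strand), had 96.6, 110 and 57.6 in CTL, 564, 586 and 555 in CGG, 553, 745 and 608 in TRA_OE, 250, 237 and 195 in siTRA, and 586, 625 and 575 in CGG_siTRA. The siTRA libraries lay between CTL and the other treated groups, overlapping neither. CGG_siTRA exceeded siTRA by 1.46 ± 0.165 on the log2 scale (SE), every CGG_siTRA library being above every siTRA library, with an adjusted p of 0.00098 by edgeR. The member at chromosome 12, 57516588 to 57520517 (minus strand), had 1740, 1748 and 1599 in CTL, 6770, 6778 and 6736 in CGG, 6052, 5826 and 6899 in TRA_OE, 4490, 4008 and 4173 in siTRA, and 6905, 7229 and 6071 in CGG_siTRA. It showed the same order, with siTRA apart from CTL and from the other treated groups. The difference of CGG_siTRA from siTRA was 0.74 ± 0.085 on the log2 scale, with an adjusted p of 0.00098 by edgeR. That call was lost when only the libraries of the 2 groups entered the edgeR fit (adjusted p 0.166, in a range over the alternatives from 2.33e-13 to 0.166). The chromosome 9 member was called under all 15 alternatives tried. Over all 65 members the median log2 difference was 0.05, against 0.01 over all genes tested.

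Raised against lowered TRA2A gave calls for 25 members, 2 higher and 23 lower in TRA_OE than in siTRA. Among all genes tested 27.5% were called in this comparison, 14.4% higher and 13.1% lower. The median log2 difference was -0.25 over the members and 0.00 over all genes. The 2 higher members were those on chromosome 9 at 128149441 (1.41 on the log2 scale, adjusted p 8.41e-06 by edgeR) and on chromosome 12 (0.49, adjusted p 0.000407 by edgeR), measured against the same siTRA libraries as above. With the authors' scaling factors in place of edgeR's, 5 members were higher and 20 lower, while all genes moved from 2519 higher and 2304 lower to 3803 higher and 1603 lower.

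The largest falls were those of ENSG00000213606.3, with a log2 difference of -1.44 ± 0.130 (SE) and an adjusted p of 5.98e-07 by edgeR, and of members at chromosome 16, 79585843 to 79600714, and chromosome 4, 87975650 to 87983426. The chromosome 16 member (minus strand) had 41.0, 40.2 and 55.0 in TRA_OE and 85.7, 180 and 65.4 in siTRA, and fell by 1.33 on the log2 scale (adjusted p 0.00704 by edgeR). The groups did not overlap, and siTRA library b was far above the rest. The chromosome 4 member (plus strand) had 8320, 8466 and 7525 in CTL, 42479, 41169 and 43751 in CGG, 21955, 21499 and 23188 in TRA_OE, 54016, 43221 and 58609 in siTRA, and 55176, 53421 and 46610 in CGG_siTRA. TRA_OE lay between CTL and all other treated libraries, and its difference from siTRA was -1.31 ± 0.106 on the log2 scale (SE), with an adjusted p of 1.64e-07 by edgeR.

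The repeat compared with TRA2A overexpression gave calls for 14 members, all higher in CGG. Among all genes 6.5% were called, 4.4% higher and 2.1% lower in CGG. The median log2 difference was 0.26 over the members and -0.01 over all genes. With the authors' scaling the members' count and direction stayed at 14 higher, while all genes called moved from 771 higher and 368 lower to 623 higher and 743 lower. The TRA_OE libraries used here also entered the comparison with siTRA.

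The 3 largest differences were 1.41 ± 0.130 on the log2 scale (SE) for ENSG00000213606.3 (adjusted p 3.91e-06 by edgeR), 1.37 ± 0.278 for the less abundant chromosome 7 neighbour at 134564788 (adjusted p 0.00662 by edgeR) and 1.31 ± 0.178 for the member at chromosome 19, 18382170 to 18389176 (adjusted p 0.000225 by edgeR). The last (plus strand) had 998, 1029 and 829 in CTL, 5998, 7514 and 7704 in CGG, 3321, 3220 and 2244 in TRA_OE, 5273, 3998 and 6953 in siTRA, and 5926, 6405 and 6563 in CGG_siTRA. Its TRA_OE libraries were above CTL and below every other treated library. The same order was seen at chromosome 7, 23236668 to 23275108 (plus strand), which had 2400, 2384 and 2332 in CTL, 14661, 13650 and 14322 in CGG, 6796, 6468 and 6908 in TRA_OE, 12725, 10827 and 14942 in siTRA, and 13004, 11838 and 11283 in CGG_siTRA. Its log2 difference of CGG from TRA_OE was 1.12 ± 0.101 (SE), with an adjusted p of 3.06e-06 by edgeR. The abundant member at chromosome 7, 134527592 differed by 1.23 ± 0.145 in the same test (adjusted p 4.93e-05 by edgeR), and the chromosome 4 member by 0.98 ± 0.105 (adjusted p 1.8e-05 by edgeR).

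CGG_siTRA compared with CGG gave calls for 2 members, both higher in CGG_siTRA, while 8.6% of all genes were called, 3.37% higher and 5.23% lower. The chromosome 4 member was higher by 0.39 ± 0.104 on the log2 scale (SE), with an adjusted p of 0.0253 by edgeR. The member at chromosome 1, 109910242 to 109930992 (plus strand), had 2328, 2504 and 2322 in CTL, 5794, 6634 and 6949 in CGG, 4966, 4818 and 4647 in TRA_OE, 7975, 7091 and 8337 in siTRA, and 7444, 8488 and 7053 in CGG_siTRA. Its CGG_siTRA libraries were all above its CGG libraries, by a narrow gap, and the log2 difference was 0.35 ± 0.0931 (SE), with an adjusted p of 0.025 by edgeR. Each of these calls was lost under 6 of the 15 alternatives. The chromosome 1 call was lost without CGG library a, CGG library b or CGG_siTRA library b, and the chromosome 4 call without any 1 of these, CGG library c or CGG_siTRA library a. Without CGG library b, 0 members were called by edgeR and 12 of 65 had an unadjusted p under 0.05, as did 17.1% of all genes tested. With the authors' scaling, under which the median of all genes moved from 0.01 to -0.09, 1 member was higher and 5 were lower, and all genes called moved from 591 higher and 916 lower to 293 higher and 2017 lower.

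**Figure D4:**
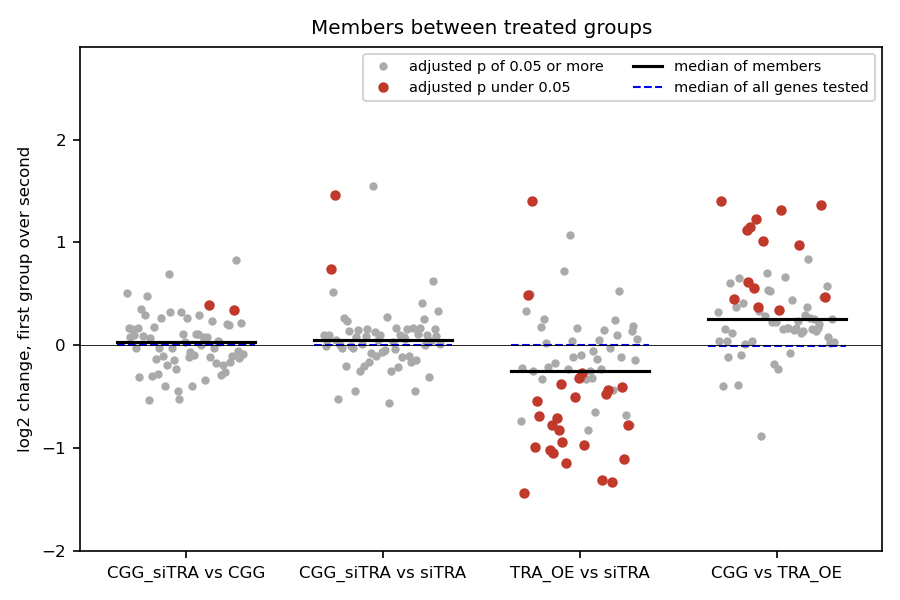
Log2 difference (vertical axis, first group over second) of each of the 65 members in the 4 comparisons among treated groups; red points have an adjusted p under 0.05 by edgeR, the solid line is the members' median and the dashed line that of all genes tested. The red points are below 0 for 23 of 25 members in TRA_OE vs siTRA and above 0 for 14 of 14 in CGG vs TRA_OE.

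Some members varied together over the 12 treated libraries. Pearson's r of the log2 values was 0.95 for the chromosome 4 member and the chromosome 1 member at 109910242, and 0.94 for the chromosome 7 members at 134527592 and 23236668. It was 0.91 for the chromosome 9 member at 128149441 and the chromosome 12 member, and 0.89 for the chromosome 22 and chromosome 5 members. The libraries share groups, depth and scaling, so these values are descriptions across 12 libraries, and the pairs were picked for a high r.

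Library b of siTRA stood apart from its group in a way that differed between kinds of member. Relative to the mean of siTRA libraries a and c, the median log2 ratio was -0.29 over the 50 members with several bins, of which 14 were above 0. Over the 15 members with 1 bin it was 0.20, and 9 were above 0. The same medians over single gene IDs with a normalised value of 10 or more in at least 3 libraries, without groups of overlapping genes, were 0.06 for 13345 genes with several bins and 0.36 for 2493 genes with 1 bin. Without this library 31 members were called in TRA_OE vs siTRA, 2 higher and 29 lower, and 25.6% of all genes tested were called. What sets the library apart was not tested.

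**Figure D5:**
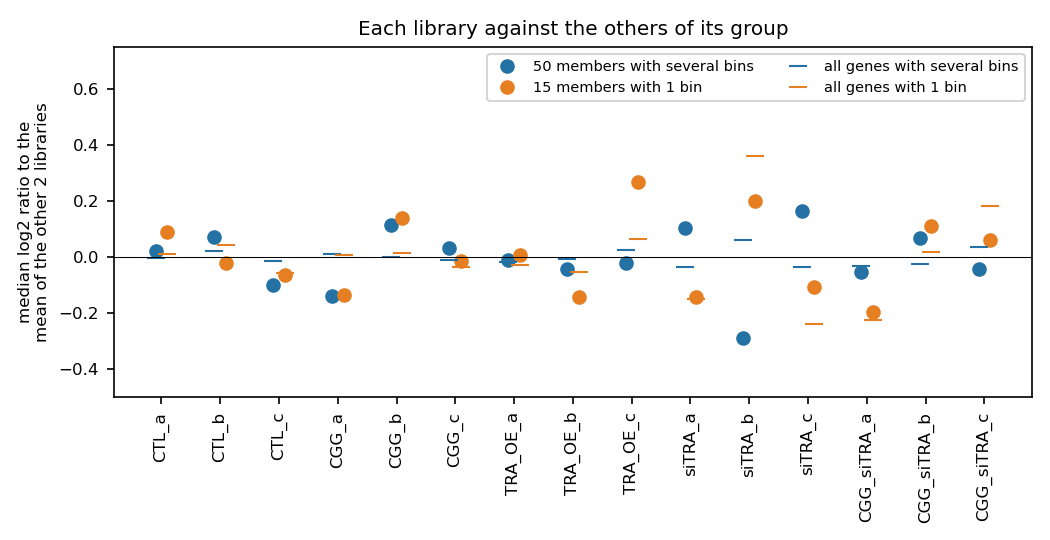
Median log2 ratio of each of the 15 libraries to the mean of the other 2 libraries of its group (vertical axis); blue marks stand for genes with several bins and orange for genes with 1 bin, points for members and dashes for all genes. siTRA b has its blue point lowest at -0.29 and its orange point at 0.20.

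Relative bin use and splicing events were readouts that the rule did not use. In the authors' deposited table of bin use for CGG_siTRA vs CGG, 14 of 472 member bins (2.97%) in 7 members had an adjusted p under 0.05, against 3.34% of all bins with an adjusted p. In the authors' deposited table for TRA_OE vs siTRA it was 6 of 668 member bins (0.898%) in 4 members, against 0.595% of all. The first share was close to that of all bins, and the second rests on 6 bins.

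The largest change in CGG_siTRA vs CGG was in the chromosome 5 member. In the authors' deposited table the bin at 179822485 to 179822888 had a log2 change of 1.59 (adjusted p 0.0197) and the next, at 179822889 to 179822957, 1.46 (adjusted p 0.000288). The normalised value of the first was 49.2 ± 9.45 in CGG, 113 ± 60.3 in CGG_siTRA and 95.2 ± 54.7 in siTRA, so the spread in both knockdown groups was wide. These are minor bins of a gene whose summed value in CGG was 43946. In TRA_OE vs siTRA, the authors' deposited table gave a log2 change of -1.81 (adjusted p 0.00381) for the bin at chromosome 10, 72274422 to 72274635, which had 6.61 ± 1.68 in TRA_OE and 20.9 ± 4.54 in siTRA. It gave log2 changes of 1.09 to 1.13 for 3 adjoining bins at chromosome 7, 23246709 to 23246773, and -0.71 (adjusted p 0.0168) for the bin at chromosome 11, 61964892 to 61964986.

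The authors' deposited event tables listed 18 events in 9 members in each comparison. After Benjamini-Hochberg adjustment of the deposited p-values over 6311 events, 0 member events were called in CGG_TRA vs CGG, CGG_TRA vs CGG_siTRA and CGG_siTRA vs siTRA, where 0.412%, 0.713% and 0.0475% of all events were called. With an unadjusted p under 0.05 there was 1 member event in the first (chromosome 9, 87727729 to 87772908, p = 0.0357 in the authors' deposited table), 1 in the second (chromosome 1, 109921994 to 109924060, p = 0.0165 in the authors' deposited table) and 0 in the third. Among all events 8.13%, 8.87% and 6.31% had such a p in these comparisons. The change in the fraction spliced in lay between -0.0571 and 0.046 in these authors' deposited tables, whose direction is not stated. Several events listed under the abundant chromosome 7 member, such as 134532024 to 134571604, reach into the interval of its neighbour.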

How the data were processed

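Per the labels, total RNA (Qiagen extraction, DNase) was made into rRNA-depleted TruSeq libraries. The submitters' processing notes name cutadapt 1.14, STAR 2.5.2, DESeq2 and GRCh38.p10. The authors deposited a normalised signal per exon bin for 15 libraries, and tables of bin use with raw counts, p-values and log2 changes. Their event tables, also deposited, hold p-values, a z score and a change in the spliced-in fraction. Reads covering several bins count once in each of them. Columns were tied to groups by their names.

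Reads were recovered from the deposited signal with a single factor for each library. All values (100%) came out whole to within 0.1 read, and 0 bins differed from the deposited counts where both were listed. Reads were summed per gene, and those outside the count tables, mostly of genes with 1 bin, were recovered from the signal (1.56% to 2.10% of reads summed over bins). Members followed the rule stated above. Members and lists were chosen with earlier results of these data known. edgeR 4.0.16 in R 4.3.3 (quasi-likelihood, TMM, 5 group means over 15 libraries) tested 17526 genes or groups of overlapping genes. Each had a normalised value of 10 or more in at least 3 libraries. The SE of a log2 difference is its size over the root of the test's F. The script was tested on simulated data.

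Members described individually were to be the 10 with the highest ratio, the 10 most abundant, the 3 called members with the largest change in each direction of each comparison and the 3 on each side of the ratio threshold. Others were described after their values were seen. Alternatives were other scalings, filters, tools (DESeq2 1.42.0, limma 3.58.1 on log2(value + 1) or + 0.5), gene values and left-out libraries. Of the reference table's rows, 0 hold a human Ensembl ID. At most 2 IDs are printed.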

Additional observations from a re-analysis of the deposited data

How the results depend on the processing

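In the 4 comparisons among treated groups, 0 called members changed direction under the 15 alternatives tried for each, where the member could be tested. The number of members was 149 with a ratio of 1.5 or more and 101 with a highest group mean of 20 or more, and 60 to 75 leaving out 1 library. For CGG_siTRA vs CGG, members called were 6 with the authors' factors, 6 without a filter, 4 with the highest bin for the gene, 5 with DESeq2, 6 and 5 with limma at pseudocounts of 1 and 0.5, and 0 to 3 leaving out 1 library. For CGG_siTRA vs siTRA they were 4 without a filter, 1 with the 2 groups alone, 4 with DESeq2 and 2 to 4 leaving out 1 library (4 without CGG_siTRA library a). The cause was not tested. The number of all genes called moved in both comparisons too, as given above for some of the settings and not given for the others. The member counts alone therefore show nothing particular to the members. In TRA_OE vs siTRA 21 of 25 calls, and in CGG vs TRA_OE 10 of 14, held under every alternative that tested them. Leaving out 1 library, 23 to 31 and 11 to 12 members were called. The matching shares of all genes are not set beside these ranges, which therefore show nothing particular to the members either. No paired analysis was possible because no label ties a count column to a numbered sample title. Depth limits the members of low level, such as chromosome 19, 48755559, whose siTRA values of 33.0, 9.11 and 31.2 rest on few reads.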
